A study of Arabidopsis thaliana with 18 samples.

Results

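In Arabidopsis seedlings, the RNA of 129 nuclear genes was lower in the mutant ecap-2 than in the wild type (WT) by a wide margin at every time sampled. A gene was taken when, at each of 0, 1 and 3 h, the highest of 3 ecap-2 values was less than 0.5 times the lowest of 3 WT values. Its WT mean over 9 libraries also had to be at least 3 FPKM. FPKM count sequenced fragments relative to transcript length and library size. Of 22209 genes listed, 14876 nuclear genes met the WT minimum, and the 129 members are 0.867% of these. The ecap-2 and WT levels themselves chose the members, so their difference between the genotypes is given below as a description and without a test. Genes encoded in the plastid or mitochondrion were left out, as were 6 genes named in the rule.

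RNA came from whole seedlings, 6 days old, of the accession Col-0 (WT) and of ecap-2, exposed to jasmonic acid (JA) at 50 µM. The 6 groups (WT at 0, 1 and 3 h and ecap-2 at 0, 1 and 3 h of exposure) held 3 libraries each, 18 in all, and both 0 h groups were untreated. The mutant is a single line, so its allele cannot be told apart from anything else that line carries. No seedlings moved to plates without JA are among the samples, so JA cannot be told apart from transfer and time of day. Whether the replicates were grown separately is not in the labels, and p-values cover only the spread among these libraries, which may be technical.

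Jasmonate is a stress and defence hormone. When it is absent, JAZ proteins hold jasmonate-responsive transcription factors in check with the help of co-repressors, and when it is present JAZ proteins are destroyed. The series title presents ECAP as an adaptor between JAZ proteins and the co-repressor TPR2. The members are not one known pathway: they encode peptides, hormone regulators, ribosomal proteins, wall enzymes and many proteins of unknown role.

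The gene at AT3G58110, taken as ECAP from general knowledge, was at 15.1 ± 0.886 FPKM (SD, n = 3) in WT and 2.65 ± 0.23 FPKM in ecap-2 at 0 h, and the 9 ecap-2 libraries lay between 2.34 and 2.89 FPKM against 12.3 to 16.1 FPKM in WT. Total FPKM per library was 687996 to 765209 in WT, while ecap-2 had 760383 to 801831 at 0 and 1 h and 853858 to 912834 at 3 h. Read depth is unknown. An approximate relative depth taken from genes near 0 was 0.745 to 1.27 times that of WT 3 h replicate 2. Root, green-tissue, seed-remnant, reference and JA-response marker lists held no member. Of the root list, 14 of 15 genes were listed, 0 lay lower and 5 higher in ecap-2 at every time, and its summed level at 0 h was 2218 to 2423 FPKM in WT and 2833 to 3058 FPKM in ecap-2. Nearly all of that sum came from 1 gene, PYK10, which averaged 2819 FPKM in WT and 3446 FPKM in ecap-2 over 9 libraries each. The next highest root gene, CASP1, averaged 48.2 and 57.3 FPKM, and its libraries overlapped between the genotypes. Of the green-tissue list 13 of 16 were listed, with 0 lower and 3 higher, at 52113 to 60447 FPKM in WT and 65162 to 72831 FPKM in ecap-2 at 0 h. Of the 7 seed-remnant genes 0 lay apart, and 3 of 6 reference and 2 of 9 JA-response genes lay higher. The part of these shifts in the members' values was not tested. Whole seedlings were used, so for every value below fewer cells of a type and less RNA per cell cannot be told apart.

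The mean WT level of the members was 4.85 times the mean ecap-2 level at the median, with a range from 2.51 to 28.4. In 62 members the ratio was at least 5 and in 24 it was at least 10. The median member stood at 10.9 FPKM in WT and 2.02 FPKM in ecap-2. Summed over the 129 genes, the level was 2581 to 3018 FPKM in the 9 WT libraries and 487 to 699 FPKM in the 9 ecap-2 libraries, which is 0.345% to 0.414% and 0.0533% to 0.0906% of each library's total. The direction is not rare in these tables: 18.0% of the 14876 genes lay lower and 16.5% lay higher in ecap-2 at all 3 times without any minimum fold. Most members, 89 of 129, are also among the genes of lowest coding GC, a class whose other genes had a median ecap-2 difference of -0.39 on the log2(FPKM + 1) scale. The members' own median was -1.78. After a correction for coding GC, 102 of the 129 still met the rule. That correction removes only the median shift of genes of like GC, so it cannot separate the members' difference from the spread of such genes. All 129 members passed the filter for testing. The annotation names 39 of them by a symbol and calls 21 an uncharacterized protein.

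**Figure D1:**
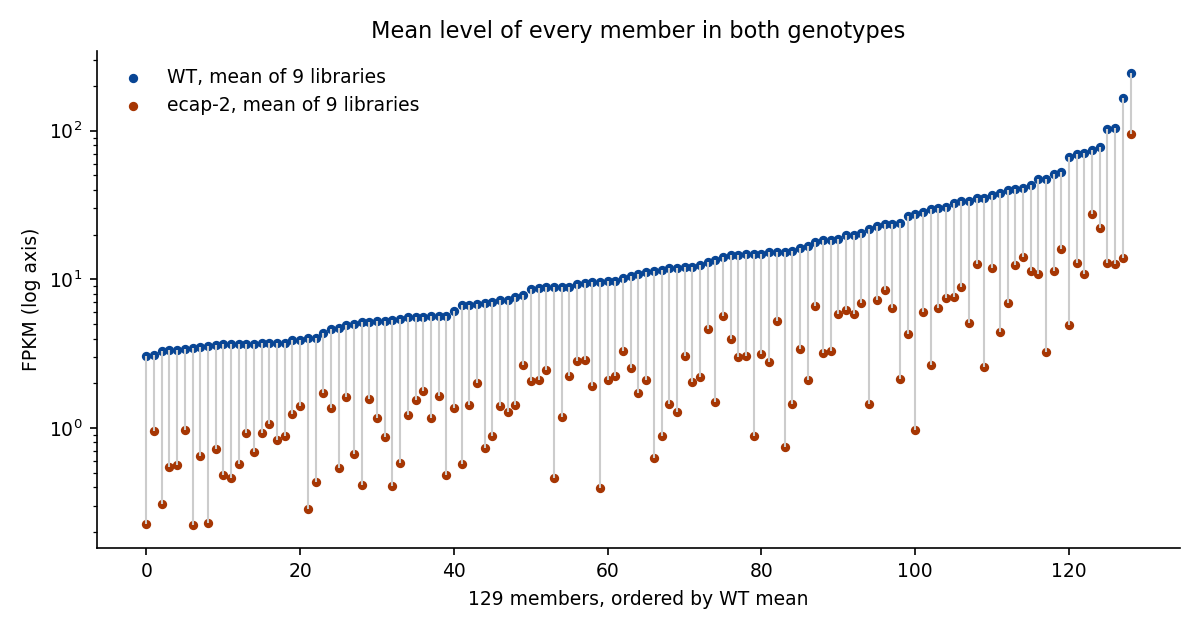
Mean FPKM of the 129 members on a log axis, ordered by WT mean, with WT in blue and ecap-2 in brown and a grey line joining both means of 1 gene (9 libraries each). The gap between the points runs from 2.51-fold to 28.4-fold and is present at high and at low WT levels.

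The members near the threshold show what the rule just takes and just misses. The least separated were AT2G33400, an FK506-binding nuclear-like protein with means of 5.71 FPKM in WT and 1.64 FPKM in ecap-2, the Rrp15p protein gene AT5G48240 at 23.5 and 8.53 FPKM, and the uncharacterized AT5G19190 at 104.1 and 12.7 FPKM. Just outside were the MADS-box gene AGL65 at 3.50 and 1.23 FPKM, AT5G40630 at 3.43 and 0.985 FPKM and AT5G64880 at 11 and 2.25 FPKM. AT5G19190 sits at the threshold although its mean ratio is 8.17: at 1 h its highest ecap-2 library was at 20.6 FPKM and its lowest WT library at 41.2 FPKM.

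Within each genotype the members' response to JA was tested against 0 h on the log2(FPKM + 1) scale with limma over 17835 genes. This scale understates changes of genes near 0, which in this set means the ecap-2 side. In WT at 1 h, 17 members rose and 16 fell, 25.6% of the 129, against 33.9% of all genes tested (17.3% up and 16.7% down). In WT at 3 h, 27 rose and 26 fell, 41.1% of the members against 41.5% of all genes (21.4% up and 20.1% down). In ecap-2 at 1 h, 25 rose and 16 fell, 31.8% against 33.6% (16.6% up and 17.0% down). In ecap-2 at 3 h, 15 rose and 26 fell, 31.8% against 45.2% (23.1% up and 22.2% down). With every library scaled to a common total, the last split became 13 rises and 41 falls, and the median of all genes moved by -0.16 in that comparison. The members were thus called no more often than other genes in any of the 4 comparisons, and 49 of them (38.0%) were called in none, beside 32.4% of all genes.

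The median change of the members was 0.0092 in WT at 1 h, 0.0066 in WT at 3 h, 0.18 in ecap-2 at 1 h and -0.079 in ecap-2 at 3 h, beside 0.0069, -0.0012, -0.0053 and -0.0069 over all genes. Non-members of lowest coding GC, described below, had median shifts from the WT mean of -0.51, -0.36 and -0.32 in ecap-2 at 0 h. These shifts were -0.34, -0.30 and -0.27 at 1 h and -0.53, -0.49 and -0.42 at 3 h. How much of the members' ecap-2 changes goes with these shifts was not tested. At 3 h, 13 members rose in both genotypes, 48.1% of those that rose in WT and 86.7% of those that rose in ecap-2, beside 73.9% and 68.5% for all genes. At 3 h, 17 fell in both, 65.4% of each list, beside 68.9% and 62.5% for all genes. At 1 h, 7 rose in both, 41.2% of the WT and 28% of the ecap-2 calls, beside 72.5% and 75.5% for all genes. At 1 h, 12 fell in both, 75% of each list, beside 74.6% and 73.3%. Opposite calls in the genotypes were made for 0 members at 1 h and 0 at 3 h, and are rare among all genes too, at 0.0505% and 0.336%. In all 4 comparisons 10 members (7.75%) were called, beside 15.4% of all genes: SHY2, LOG1, XTH6, AT2G35380, AT4G36470, AT3G25930, AT1G70650 and AT1G74770 fell, and PPa6 and AT1G69760 rose. For 4 of them the call in ecap-2 at 1 h was lost when 1 library was left out: LOG1 without ecap-2 1 h replicate 3 (adjusted p = 0.0666), AT4G36470 without ecap-2 0 h replicate 1 (0.0651), PPa6 without ecap-2 0 h replicate 2 (0.0569) and SHY2 without any of 4 libraries, given with its values.

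**Figure D2:**
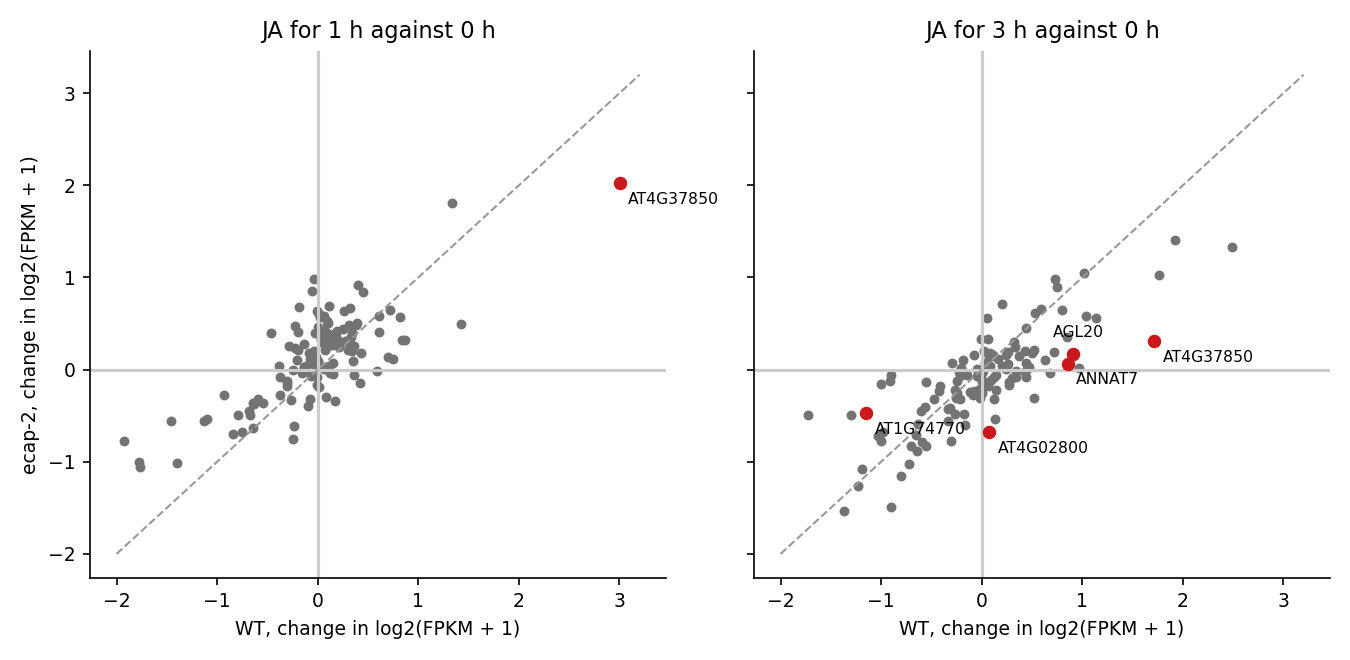
Change of each member in log2(FPKM + 1) after JA for 1 h (left) and 3 h (right), WT on the horizontal and ecap-2 on the vertical axis, with equal change on the dashed line. Red points are the members whose change differed between the genotypes in limma's test, 1 at 1 h and 5 at 3 h.

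Members with a known product were grouped by role, and these groups, as well as examples from them, were chosen after the values were seen. They cover 51 members in 9 groups. The other 78 had ratios from 2.51 to 28.4 with a median of 5.11.

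The ribosome and RNA group holds 9 members with ratios from 2.76 to 13.4. Ribosomal protein L41 is the smallest protein of the large ribosomal subunit, and its 5 gene copies give a direct comparison, since only 2 of them are members. In AT3G11120 the WT values were 125.4, 111.9 and 191.8 FPKM at 0 h, 212.5, 154.4 and 173.9 FPKM at 1 h and 154.7, 181.2 and 189.3 FPKM at 3 h. The ecap-2 values were 13.0, 8.13 and 14.9 FPKM, then 11.2, 18.8 and 13.4 FPKM, then 9.86, 21.9 and 14.1 FPKM. Every ecap-2 library was thus far below every WT library, which the rule required within each time, at 11.9-fold between the means. AT3G56020 had WT values of 37.6, 22.9 and 51.9 FPKM at 0 h and ecap-2 values of 3.21, 2.73 and 4.88 FPKM, and its means over 9 libraries were 38.1 ± 15.1 FPKM and 4.44 ± 1.47 FPKM (SD, n = 9). The other copies were lower in ecap-2 by much less: 1.69-fold in AT1G56045 (122.4 and 72.5 FPKM), 1.82-fold in AT2G40205 (71.6 and 39.3 FPKM) and 1.99-fold in AT3G08520 (270.5 and 135.9 FPKM).

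The L41 coding sequences are shown to let the 2 member copies be set beside the 3 others. They were read from the RefSeq TAIR10.1 genome, run 5′ to 3′ from the start to the stop codon, and have G and C in capitals. The copies lie at chr1:20962570-20963546 (plus strand), chr2:16792175-16792622 (minus), chr3:2586001-2586343 (plus), chr3:3481020-3481485 (plus) and chr3:20790502-20791163 (minus) in the order printed, as whole annotated genes.
AT1G56045: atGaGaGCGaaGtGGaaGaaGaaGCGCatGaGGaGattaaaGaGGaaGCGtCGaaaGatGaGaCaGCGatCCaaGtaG
AT2G40205: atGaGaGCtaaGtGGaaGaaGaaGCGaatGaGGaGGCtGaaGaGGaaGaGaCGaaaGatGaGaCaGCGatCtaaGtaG
AT3G08520: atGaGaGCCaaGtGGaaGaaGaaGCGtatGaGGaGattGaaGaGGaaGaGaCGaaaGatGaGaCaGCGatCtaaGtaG
AT3G11120 (member): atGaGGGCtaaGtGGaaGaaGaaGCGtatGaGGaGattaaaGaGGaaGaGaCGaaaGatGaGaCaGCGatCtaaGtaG
AT3G56020 (member): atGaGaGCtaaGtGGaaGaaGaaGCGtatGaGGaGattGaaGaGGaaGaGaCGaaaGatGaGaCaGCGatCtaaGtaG
Each sequence has 78 bases, with 37, 36, 35, 34 and 34 G or C bases in the order printed, so both member copies have the fewest in the coding part. Over the spliced transcript GC was 36.0%, 38.7%, 36.6%, 35.1% and 36.0% in the same order. There the member AT3G56020 and the non-member AT1G56045 were alike. Any pair of copies differs at 1 to 8 bases. AT3G08520 and AT3G56020 differ at 1 base, so how reads from the coding part were shared among the copies is uncertain.

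Other genes of this group act on ribosome assembly or on mRNA. LSM1A, a subunit of the complex that starts mRNA decay at the cap, had WT values of 21.2, 27.3 and 28.9 FPKM at 0 h and ecap-2 values of 1.74, 4.12 and 5.35 FPKM. At 3 h it stood at 26.2, 24.9 and 31.2 FPKM in WT and 2.02, 3.38 and 4.26 FPKM in ecap-2. In ecap-2, replicate 1 of LSM1A was the lowest library at both times. The Fcf2 pre-rRNA processing genes AT1G54770 and AT5G30495 were 11.3-fold and 3.29-fold lower in ecap-2. Among all genes, rises at 1 h were called for 17.3% in WT and 16.6% in ecap-2. At 3 h, 41.5% of all genes in WT and 45.2% in ecap-2 were called in either direction. In this group, formed after the values were seen, 1 member rose in WT at 1 h and 2 rose in ecap-2 at 1 h. At 3 h 0 were called in either genotype. The WT call was AT1G54770, with 61.3, 22.1 and 21.2 FPKM at 1 h against 15.2, 18.5 and 17.3 FPKM at 0 h (log2 change 0.82 ± 0.30 SE, limma adjusted p = 0.046). Without WT 1 h replicate 1, the library at 61.3 FPKM, its change was 0.33 and the adjusted p was 0.152, and 14 of the 18 libraries ended the call when left out alone.

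Among the hormone genes, 4 members belong to auxin and cytokinin signalling, and all were lower in ecap-2 by 3.18-fold to 4.32-fold. SHY2 (IAA3) and ATAUX2-11 (IAA4) encode Aux/IAA repressors, which block auxin response factors until auxin triggers their destruction. SHY2 (chr1:1128149-1129689, minus strand) had WT values of 38.9, 48.6 and 50.9 FPKM at 0 h, 29.9, 28 and 27.3 FPKM at 1 h and 23.5, 26.3 and 27.7 FPKM at 3 h. In ecap-2 they were 8.31, 13.8 and 16.6 FPKM, then 7.39, 8.88 and 9.36 FPKM, then 4.42, 5.11 and 5.53 FPKM. The mean of SHY2 was highest before JA in both genotypes, and the genotypes did not overlap at any time, which the rule required. It fell in WT by 0.67 ± 0.17 (adjusted p = 0.006) at 1 h and by 0.81 ± 0.17 (adjusted p = 0.00127) at 3 h, and in ecap-2 by 0.50 ± 0.17 (adjusted p = 0.0348) and by 1.16 ± 0.17 (adjusted p = 4.42e-05) on the log2 scale with its SE. The call in ecap-2 at 1 h was lost without ecap-2 0 h replicate 2 or 3, without ecap-2 1 h replicate 1 or 2, and with only the libraries compared, with adjusted p from 0.0624 to 0.174.

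ATAUX2-11 (chr5:17550179-17551715, plus strand) stood at 58.6, 76.2 and 80.7 FPKM in WT at 0 h, 28, 26.4 and 24.9 FPKM at 1 h and 39.4, 41.5 and 47.5 FPKM at 3 h. Its ecap-2 values were 9.32, 17.9 and 24.8 FPKM, then 5.44, 8.49 and 9.01 FPKM, then 4.90, 8.33 and 9.78 FPKM. The WT level dropped to its lowest at 1 h, where limma called a fall of log2 -1.40 ± 0.29 (adjusted p = 0.00159). In ecap-2 the fall was -1.01 ± 0.29 SE at 1 h and -1.03 ± 0.29 at 3 h (adjusted p = 0.0136 and 0.00938). Each of these ecap-2 calls was lost without ecap-2 0 h replicate 3, without replicate 1 of the later time, and with only the libraries compared, with adjusted p from 0.0659 to 0.0779 at 1 h and from 0.0503 to 0.0803 at 3 h. The Aux/IAA gene AXR3 (IAA17) lies next to SHY2 at chr1:1136078-1138663 on the plus strand and is no member: its means were 58.2 FPKM in WT and 50.9 FPKM in ecap-2, a ratio of 1.14.

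A matching stretch of 90 coding bases is printed for the 3 Aux/IAA genes to show how alike a member and a non-member are (RefSeq TAIR10.1, 5′ to 3′ on the coding strand, G and C in capitals). It covers coding bases 727 to 816 of SHY2, 523 to 612 of AXR3 and 415 to 504 of ATAUX2-11.
SHY2 (member): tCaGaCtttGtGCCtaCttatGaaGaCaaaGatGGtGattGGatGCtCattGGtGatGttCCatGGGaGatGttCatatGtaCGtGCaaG
AXR3: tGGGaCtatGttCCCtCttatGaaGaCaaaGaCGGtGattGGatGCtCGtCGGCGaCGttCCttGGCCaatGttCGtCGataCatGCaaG
ATAUX2-11 (member): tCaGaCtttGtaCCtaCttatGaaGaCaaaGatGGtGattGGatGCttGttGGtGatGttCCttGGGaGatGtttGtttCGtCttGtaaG
SHY2 matches AXR3 at 70 and ATAUX2-11 at 78 of the 90 bases. The stretch has 38 G or C bases in SHY2 and 36 in ATAUX2-11, against 45 in AXR3. Over the whole coding sequence GC was 39.5% in SHY2, 38.1% in ATAUX2-11 and 49.3% in AXR3. These genes were picked for display after their values were seen.

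The other 2 members of this group act in cytokinin signalling. RR5, a type-A response regulator that damps cytokinin signalling, had 11.5, 10.6 and 11.7 FPKM in WT at 0 h, 4.88, 5.75 and 5.67 FPKM at 1 h and 9.80, 10.4 and 8.60 FPKM at 3 h. Its ecap-2 values were 1.27, 1.90 and 4.25 FPKM, then 1.15, 1.85 and 2.19 FPKM, then 1.78, 2.24 and 2.28 FPKM. In WT it fell at 1 h (log2 change -0.93 ± 0.22 SE, adjusted p = 0.00306), and no call was made for it in ecap-2. LOG1, which releases active cytokinin from its nucleotide, had 23.8, 28.1 and 27.0 FPKM in WT at 0 h and 12.8, 13.9 and 14.1 FPKM at 3 h, and in ecap-2 7.24, 9.62 and 9.71 FPKM and 1.92, 2.97 and 2.61 FPKM. LOG1 fell in all 4 comparisons, at 3 h by -0.90 ± 0.13 in WT (adjusted p = 1.87e-05) and -1.5 ± 0.13 in ecap-2 (adjusted p = 4.25e-08). Of the 4 genes, which were grouped after their values were seen, 4 fell in WT at 1 h and 2 at 3 h, and in ecap-2 3 fell at 1 h and 3 at 3 h. Falls were called for 16.7%, 20.1%, 17.0% and 22.2% of all genes in the same order.

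The 3 members that encode precursors of secreted signal peptides were lower by 11.2-fold to 13.5-fold. PSK3, a phytosulfokine precursor, had WT values of 24.2, 20.9 and 22.5 FPKM at 0 h, 42.7, 38.9 and 44.3 FPKM at 1 h and 22.8, 25.8 and 25.9 FPKM at 3 h. Its ecap-2 values were 2.44, 2.23 and 3.36 FPKM, then 2.76, 3.12 and 5.17 FPKM, then 1.05, 2.54 and 1.19 FPKM. PSK3 rose in WT at 1 h, where its libraries lay above all others (log2 change 0.87 ± 0.19 SE, adjusted p = 0.00221). In ecap-2 it fell at 3 h by 0.54 ± 0.19 (adjusted p = 0.0324), a call lost under 5 alternatives with adjusted p from 0.0794 to 0.151. They left out ecap-2 0 h replicate 3, ecap-2 3 h replicate 1 or ecap-2 3 h replicate 3, used a pseudocount of 5, or fitted only the libraries compared.

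RGF9, a root meristem growth factor precursor, had 49.8, 43.4 and 71.4 FPKM in WT at 0 h and 82.5, 100.7 and 90.7 FPKM at 3 h. In ecap-2 it stood at 1.74, 2.39 and 3.87 FPKM at 0 h, 3.85, 6.54 and 8.63 FPKM at 1 h and 4.65, 5.67 and 6.75 FPKM at 3 h. The rise was called in WT at 3 h (0.75 ± 0.26 SE, adjusted p = 0.0283) and in ecap-2 at 1 h (0.99 ± 0.26, adjusted p = 0.00758) and 3 h (0.90 ± 0.26, adjusted p = 0.0102). The WT call was lost under 6 alternatives with adjusted p from 0.0522 to 0.116: without WT 0 h replicate 1 or 2, without WT 3 h replicate 2 or 3, with a pseudocount of 0.1 and with a common total FPKM. IDL5, a relative of the abscission peptide IDA, stood at 2.94 to 8.37 FPKM in WT and was listed at 0 in 3 ecap-2 libraries, with 1.37 FPKM the highest.

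The light and flowering group, formed after the values were seen, holds FHY1, AGL20 and ELF4-L4. All 3 rose in WT at 3 h and 1 rose in ecap-2 at 3 h, beside 21.4% and 23.1% of all genes. FHY1 carries the far-red photoreceptor phytochrome A into the nucleus. It had 4.68, 7.10 and 8.51 FPKM in WT at 0 h, 5.23, 7.02 and 7.12 FPKM at 1 h and 17.0, 13.4 and 17.0 FPKM at 3 h. In ecap-2 it was listed at 0 in 1 library and reached 0.821 FPKM at most. The WT libraries at 3 h lay above all earlier ones (log2 change 1.14 ± 0.17 SE, adjusted p = 3.07e-05), and ecap-2 also rose at 3 h, by 0.56 ± 0.17 (adjusted p = 0.0114), from 0, 0.22 and 0.256 FPKM to 0.549, 0.821 and 0.730 FPKM. The ecap-2 call was lost without ecap-2 0 h replicate 1 (adjusted p = 0.0508) and with a pseudocount of 5 (0.246). FHY1 had the second largest ratio of all members, 24.4.

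AGL20 (SOC1), a MADS-box activator of flowering, had 2.99, 3.00 and 3.24 FPKM in WT at 0 h, 1.82, 2.70 and 2.48 FPKM at 1 h and 6.26, 6.52 and 7.28 FPKM at 3 h. Its ecap-2 libraries stayed between 0.114 and 0.576 FPKM. AGL20 rose in WT at 3 h by 0.91 ± 0.12 SE (adjusted p = 8.8e-06). ELF4-L4, a relative of the clock gene ELF4, had 3.52, 2.96 and 3.79 FPKM in WT at 0 h and 7.27, 7.90 and 7.76 FPKM at 3 h, a rise of 0.97 ± 0.19 (adjusted p = 0.000518), with 0.261 to 1.82 FPKM in ecap-2.

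**Figure D3:**
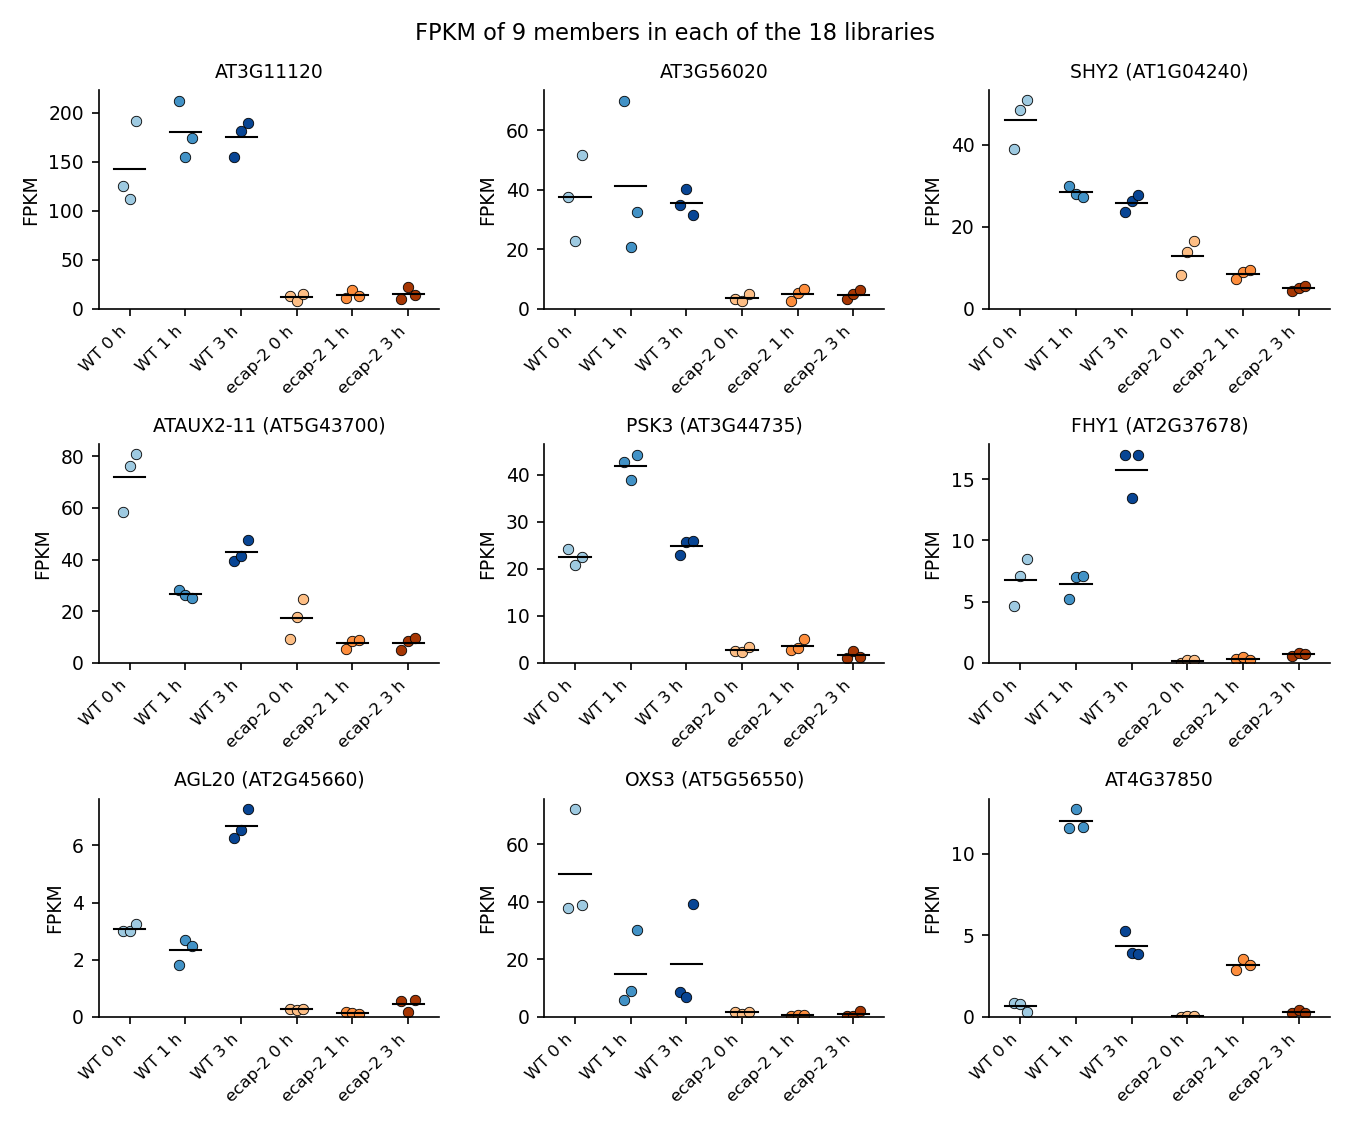
FPKM of 9 members in each library, 3 points per group with the group mean as a line, for the 2 L41 genes, SHY2, ATAUX2-11, PSK3, FHY1, AGL20, OXS3 and AT4G37850. At each time all ecap-2 points lie below all WT points, which the rule required, while the order of 0, 1 and 3 h differs from gene to gene.

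Genes for cell division and chromatin made up 7 members with ratios from 2.75 to 8.27. CYCD3;2, a D-type cyclin that drives entry into the cell cycle, had 43.5, 47.3 and 44.4 FPKM in WT at 0 h and 37.1, 38.6 and 35.9 FPKM at 3 h. In ecap-2 the values were 13.2, 17.7 and 16.4 FPKM and 10.2, 10.7 and 11.7 FPKM. The 3 h libraries were below the 0 h libraries in both genotypes, and limma called the fall in WT (-0.27 ± 0.09 SE, adjusted p = 0.0188) and in ecap-2 (-0.49 ± 0.09, adjusted p = 0.000209). The WT call was lost without WT 0 h replicate 2 or WT 3 h replicate 3, with adjusted p from 0.0669 to 0.0751. HDT4, a plant-type histone deacetylase, had 68.0, 60.8 and 51.1 FPKM in WT and 13.4, 22.8 and 20.9 FPKM in ecap-2 at 0 h, and it fell in ecap-2 at 3 h (-0.78 ± 0.19, adjusted p = 0.00293).

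The replication licensing factor CDT1B averaged 3.89 ± 0.618 FPKM in WT and 1.41 ± 0.33 FPKM in ecap-2 (SD, n = 9). CYCB2;2, a mitotic cyclin, averaged 3.70 and 0.929 FPKM. FLP, a MYB factor that ends divisions in the stomatal lineage, averaged 7.90 and 2.66 FPKM. HEI10, known for its role in meiotic crossing over, was the most reduced of the group at 12 ± 1.08 and 1.45 ± 0.236 FPKM. The annotated genes of HEI10, FLP and CYCD3;2 overlap others, as do those of further members named in this text, among them LSM1A, SHY2 and PPa6. As the counting is not stated to use strand, reads of overlapping genes may be shared.

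The 9 members placed with the cell wall and barrier lipids had ratios from 2.82 to 4.99. Of these, 3 fell and 1 rose in WT at 1 h, 5 fell in WT at 3 h, 5 fell and 1 rose in ecap-2 at 1 h, and 5 fell and 1 rose in ecap-2 at 3 h. Among all genes falls and rises were about equally frequent in each comparison, as given above, and the group was formed after the values were seen. XTH6, which cuts and rejoins xyloglucan in the wall, had 88.4, 122.1 and 128.6 FPKM in WT at 0 h, 63.9, 73.2 and 60.9 FPKM at 1 h and 56.2, 53.3 and 56.4 FPKM at 3 h. In ecap-2 it had 23.3, 34.4 and 33.6 FPKM, then 19.2, 18.9 and 17.2 FPKM, then 18.9, 18.4 and 14.3 FPKM. The 0 h libraries were the highest in each genotype, and the fall at 3 h was -1.0 ± 0.15 SE in WT (adjusted p = 4.92e-05) and -0.78 ± 0.15 in ecap-2 (adjusted p = 0.000496).

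ABCG6, a transporter for suberin and cutin components, had 24.0, 26.9 and 24.5 FPKM in WT at 0 h, 22.4, 25.7 and 24.6 FPKM at 1 h and 11.5, 10.1 and 9.89 FPKM at 3 h. In ecap-2 it had 7.87, 6.94 and 8.65 FPKM, then 7.83, 7.82 and 6.97 FPKM, then 3.87, 3.11 and 2.57 FPKM. The drop came between 1 and 3 h in both genotypes, and its size was -1.19 ± 0.10 in WT (adjusted p = 8.47e-08) and -1.08 ± 0.10 in ecap-2 (adjusted p = 2.47e-07). The peroxidase gene AT2G35380 fell in all 4 comparisons, by 0.65 to 0.84 on the log2 scale. Its fellow peroxidase gene AT5G14130 rose in WT at 1 h (0.43 ± 0.14, adjusted p = 0.0259) and in ecap-2 at 3 h (0.71 ± 0.14, adjusted p = 0.000601). Its WT call was lost without WT 0 h replicate 1 or 3, without WT 1 h replicate 2 or 3, and with only the libraries compared, with adjusted p from 0.0643 to 0.151. KCS19, an enzyme that elongates very-long-chain fatty acids, averaged 32.7 ± 6.32 FPKM in WT and 7.66 ± 2.63 FPKM in ecap-2 (SD, n = 9) and was called in none of the comparisons.

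The 7 members placed with specialised metabolism had ratios from 2.55 to 7.52. Of these, 4 rose in WT at 1 h and 5 at 3 h, and 3 rose in ecap-2 at 1 h and 4 at 3 h, while 1 fell in each. This group too was formed after the values were seen, and rises were called for 17.3%, 21.4%, 16.6% and 23.1% of all genes in the same order. The neighbouring O-methyltransferase genes AT1G77520 (chr1:29130375-29132272) and AT1G77530 (chr1:29135904-29137640), both on the plus strand with 3632 bases between them, had similar levels and changes. AT1G77520 had 0.781, 1.15 and 1.60 FPKM in WT at 0 h and 5.76, 7.85 and 5.50 FPKM at 3 h, and in ecap-2 0.137, 0.109 and 0.148 FPKM and 1.13, 1.59 and 1.2 FPKM. AT1G77530 had 0.979, 1.37 and 1.27 FPKM in WT at 0 h and 7.55, 9.01 and 5.78 FPKM at 3 h, and in ecap-2 0.381, 0.184 and 0.166 FPKM and 2.21, 2.74 and 1.93 FPKM. The 3 h libraries were the highest in each genotype. The rise at 3 h was 1.76 ± 0.15 SE in WT and 1.02 ± 0.15 in ecap-2 for AT1G77520 (adjusted p = 5.9e-08 and 3.23e-05), and 1.92 ± 0.18 and 1.40 ± 0.18 for AT1G77530 (adjusted p = 2.2e-07 and 8.73e-06).

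ESM1, which steers glucosinolate breakdown towards isothiocyanates, had 13.2, 15.5 and 13.6 FPKM in WT at 0 h and 23.1, 26.4 and 22.6 FPKM at 3 h. In ecap-2 it had 1.68, 2.01 and 2.04 FPKM and 5.34, 5.11 and 3.95 FPKM. It rose at 3 h in both, by 0.73 ± 0.13 in WT (adjusted p = 0.000303) and 0.99 ± 0.13 in ecap-2 (adjusted p = 1.26e-05). AOP1, an oxygenase gene related to those that modify glucosinolate side chains, averaged 8.91 ± 0.835 FPKM in WT and 1.18 ± 0.516 FPKM in ecap-2 (SD, n = 9). NAMT1, annotated as a methyltransferase, rose in WT from 1.08, 1.2 and 2.06 FPKM to 4.75, 7.52 and 4.58 FPKM at 1 h (1.43 ± 0.16 SE, adjusted p = 2.35e-06), and in ecap-2 from 0.141, 0.320 and 0.468 FPKM to 0.738, 0.980 and 0.790 FPKM (0.49 ± 0.16, adjusted p = 0.0259). The ecap-2 call was lost under 6 alternatives with adjusted p from 0.0520 to 0.197: without ecap-2 0 h replicate 1 or 2, without ecap-2 1 h replicate 2 or 3, with a pseudocount of 5 and with the coding GC correction.

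The 3 members grouped as transcription factors were MYB66, MYB43 and the basic helix-loop-helix gene AT4G37850. MYB66 (WEREWOLF), which sets the hairless fate in the root epidermis, had 4.62, 5.27 and 5.94 FPKM in WT at 0 h and 0.151, 0.553 and 0.713 FPKM in ecap-2, with no call after JA. MYB43 averaged 5.19 and 1.57 FPKM and fell at 3 h in WT (-0.60 ± 0.15 SE, adjusted p = 0.00334) and in ecap-2 (-0.79 ± 0.15, adjusted p = 0.000335). AT4G37850 had the largest change of any member in the 4 comparisons. It had 0.824, 0.802 and 0.288 FPKM in WT at 0 h, 11.6, 12.7 and 11.6 FPKM at 1 h and 5.26, 3.93 and 3.85 FPKM at 3 h. In ecap-2 it had 0, 0.067 and 0.0229 FPKM, then 2.85, 3.53 and 3.18 FPKM, then 0.222, 0.395 and 0.219 FPKM. It rose at 1 h by 3.00 ± 0.13 in WT (adjusted p = 1.39e-11) and by 2.02 ± 0.13 in ecap-2 (adjusted p = 2.35e-09), and at 3 h it remained raised in WT (1.71 ± 0.13, adjusted p = 1.65e-08).

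The signalling proteins were lower by 3.35-fold to 12.4-fold. CML23, a calmodulin-like calcium sensor, had 6.47, 6.67 and 6.44 FPKM in WT and 0.811, 0.965 and 0.695 FPKM in ecap-2 at 0 h. It fell at 1 h in both genotypes, in WT by 0.65 ± 0.15 SE (adjusted p = 0.00277) and in ecap-2 by 0.64 ± 0.15 (adjusted p = 0.0032). The WT call was lost with a pseudocount of 0.1 (adjusted p = 0.0963) and the ecap-2 call with a pseudocount of 5 (0.0765). SNRK2.7, a kinase of the family activated by osmotic stress, had 7.87, 8.89 and 7.37 FPKM in WT at 0 h and 4.01, 3.52 and 3.18 FPKM at 3 h (-0.99 ± 0.14, adjusted p = 3.12e-05). Its ecap-2 values were 0.819, 1.15 and 1.5 FPKM at 0 h and 0.525, 0.340 and 0.182 FPKM at 3 h (-0.67 ± 0.14, adjusted p = 0.00109).

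CR4, the crinkly4 receptor kinase of the epidermis, held between 4.39 and 5.25 FPKM in WT. In 4 ecap-2 libraries its deposited value was above 0 but no higher than 7.04e-25 FPKM, which cannot be a number of fragments, while the other 5 lay between 0.415 and 1.32 FPKM. It was the only member with such a value, and 2 of the 14876 genes had one. The ecap-2 level of CR4 is therefore an uncertain estimate.

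Outside the role groups stood PPa6, the member with the highest WT mean, and OXS3, the member with the highest ratio. PPa6, a plastid pyrophosphatase, had 192.3, 200.7 and 190.8 FPKM in WT at 0 h and 297.3, 296.9 and 285.6 FPKM at 3 h. In ecap-2 it had 78.5, 65.8 and 79.8 FPKM and 121.3, 122.2 and 110.7 FPKM. It rose by a like amount at 3 h, 0.59 ± 0.08 SE in WT (adjusted p = 1.22e-05) and 0.66 ± 0.08 in ecap-2 (adjusted p = 3.41e-06). AT1G69760, annotated as SRP40-like, also rose in both genotypes. It went from 20.6, 16.6 and 16.6 FPKM to 50.4, 43.3 and 46.1 FPKM at 1 h in WT (1.33 ± 0.18 SE, adjusted p = 3.07e-05) and from 1.41, 1.35 and 2.56 FPKM to 5.95, 8.90 and 11.6 FPKM in ecap-2 (1.81 ± 0.18, adjusted p = 1.18e-06).

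AT1G70650, a zinc-finger gene annotated as Ran BP2/NZF-like, fell in both. It had 83.7, 100.5 and 103.5 FPKM in WT at 0 h and 61.8, 58.3 and 62.7 FPKM at 3 h, and in ecap-2 33.1, 34.7 and 39.5 FPKM and 19.4, 16.7 and 20.9 FPKM. The 3 h libraries lay below the 0 h libraries in each genotype (-0.64 ± 0.09 SE in WT and -0.88 ± 0.09 in ecap-2, adjusted p = 3.36e-05 and 8.71e-07). The uncharacterized AT3G06070 went from 84.5, 119.3 and 119.1 FPKM at 0 h to 37.5, 34.2 and 51.6 FPKM at 3 h in WT and from 9.29, 14.1 and 25.8 FPKM to 3.28, 4.11 and 6.81 FPKM in ecap-2, falls of -1.37 ± 0.39 and -1.53 ± 0.39 (adjusted p = 0.0118 and 0.00561). The uncharacterized AT4G13500 averaged 103.1 ± 7.36 FPKM in WT and 12.8 ± 5.57 FPKM in ecap-2 (SD, n = 9), and it was called in none of the comparisons.

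OXS3, linked to tolerance of oxidative stress, had the highest ratio of all members, 28.4. Its WT values were 37.7, 72.3 and 38.8 FPKM at 0 h, 5.70, 8.91 and 30.2 FPKM at 1 h and 8.58, 7.03 and 39.3 FPKM at 3 h, so replicate 3 stood apart at both later times. Its ecap-2 values ran from 0.180 to 1.89 FPKM. The fall in WT was called at 1 h (-1.92 ± 0.62 SE, adjusted p = 0.0275) and at 3 h (-1.73 ± 0.62, adjusted p = 0.0379), and the call was lost without WT 0 h replicate 2, with adjusted p = 0.103 and 0.132. In all, 3 libraries ended the call at 1 h and 5 at 3 h when left out alone, with adjusted p up to 0.149. AT3G25930, annotated as an adenine nucleotide alpha hydrolase-like protein, had 21.9, 28.1 and 29.6 FPKM in WT at 0 h and 7.43, 7.04 and 6.49 FPKM at 1 h (-1.78 ± 0.13, adjusted p = 1.63e-08). In ecap-2 it had 1.18, 1.2 and 2.15 FPKM at 0 h and 0.153, 0.293 and 0.253 FPKM at 1 h (-1.01 ± 0.13, adjusted p = 1.53e-05). AT2G15960, annotated as stress-induced, rose in WT at 3 h from 3.02, 3.13 and 8.44 FPKM to 27.2, 26.0 and 35.1 FPKM (2.49 ± 0.29, adjusted p = 4.4e-06) and in ecap-2 from 0.708, 0.216 and 1.01 FPKM to 2.38, 3.08 and 3.81 FPKM (1.33 ± 0.29, adjusted p = 0.00146).

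Whether the JA response itself differed between the genotypes was tested as an interaction over all genes. The interaction is the gap between the genotypes at 1 or 3 h less the gap at 0 h. The rule chose the members by these gaps in the same libraries, so their shares beside all genes are a description only. At 1 h the difference was called for 1 member (0.775% of the 129) against 0.314% of all genes, and 19.4% of the members and 7.82% of all genes had an unadjusted p under 0.05. At 3 h it was called for 5 members (3.88%) against 2.42% of all genes, and the shares with an unadjusted p under 0.05 were 23.3% and 19.1%. The median difference of the members was 0.16 at 1 h and -0.13 at 3 h, beside -0.0087 and 0.0052 over all genes. How much of this goes with the shifts of genes of low coding GC was not tested. AT4G37850 rose less in ecap-2 on the log2(FPKM + 1) scale at 1 h (difference -0.98 ± 0.19 SE, adjusted p = 0.0321) and at 3 h (-1.40 ± 0.19, adjusted p = 0.00255). With a pseudocount of 0.1 the difference at 1 h was 0.55, the opposite sign, and at 3 h it was -1.14 (adjusted p = 0.882 and 0.157). A member that is near 0 in ecap-2 has little room to change on this scale.

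The other called differences were at 3 h. ANNAT7, a calcium-dependent membrane-binding annexin, went from 5.94, 10.05 and 9.71 FPKM to 16.7, 15.4 and 15.7 FPKM in WT and from 1.18, 1.28 and 1.54 FPKM to 1.45, 1.48 and 1.38 FPKM in ecap-2 (difference -0.79 ± 0.19 SE, adjusted p = 0.0361). AGL20, described above, differed by -0.74 ± 0.17 (adjusted p = 0.0311). The coiled-coil protein gene AT4G02800 went from 8.73, 8.47 and 8.90 FPKM to 10.3, 8.97 and 8.43 FPKM in WT and from 1.75, 2.35 and 3.49 FPKM to 1.09, 1.13 and 1.29 FPKM in ecap-2 (-0.75 ± 0.18, adjusted p = 0.0429).

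AT1G74770, annotated as zinc-ion-binding, had the only called difference in the other direction, 0.67 ± 0.16 (adjusted p = 0.0344). It went from 11.1, 8.55 and 8.14 FPKM to 4.00, 3.31 and 3.49 FPKM in WT and from 3.04, 2.27 and 2.38 FPKM to 1.60, 1.47 and 1.59 FPKM in ecap-2, so it fell in both. Each of these 4 calls was lost when any of at least 7 libraries was left out alone, and so was that of AT4G37850 at 1 h for 9 libraries.

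The members shared a base composition that the rule did not use. The GC content of the coding sequence had a median of 40.1% in the members and 44.5% in the 14875 eligible genes with a coding sequence in RefSeq TAIR10.1. Ranked by coding GC, 89 of the 129 members (69.0%) fell in the lowest decile of genes, between 26.2% and 41.6% GC, and 14 in the next decile. Of the lowest decile 5.98% were members, and of the highest decile 0.0672% (1 gene). The spliced transcripts of members were also shorter, at a median of 1348 against 1744 bases, with 3 against 5 exons. At the median, short length did not go with lower ecap-2 values beyond the members. For non-members the median difference of ecap-2 from WT in log2(FPKM + 1) was 0.19 in the shortest decile and -0.064 in the longest. Short genes spread more widely in both directions. Over all eligible genes the lowest 10% of differences lay below -0.68 in the shortest decile and -0.44 in the longest, and the highest 10% above 0.73 and 0.25. The shortest decile held 29 members and the longest 4. Within the members Spearman's rho of the difference was 0.54 with spliced length and 0.22 with coding GC. The part of length was not tested.

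Low coding GC went with lower ecap-2 values beyond the members. Among eligible genes that are not members, the median difference of ecap-2 from WT was -0.39 on the log2(FPKM + 1) scale in the lowest decile of coding GC and 0.26 in the highest, and it rose with each decile between them. Across 14875 genes Spearman's rho between coding GC and the difference was 0.49, a description only, since genes of 1 library share its composition and depth.

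**Figure D4:**
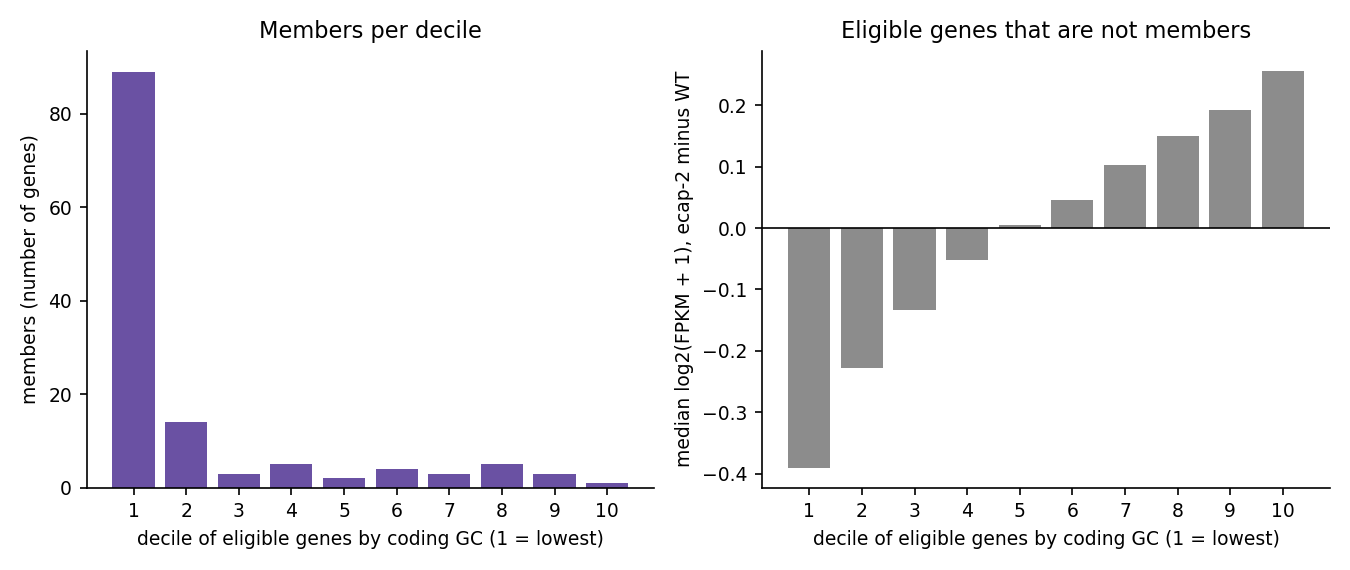
Eligible genes split into 10 equal parts by GC content of the coding sequence, from lowest to highest. Left, the number of members in each part, 89 in the lowest; right, the median difference of ecap-2 from WT in log2(FPKM + 1) for genes that are not members, from -0.39 to 0.26.

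The shift was present in every ecap-2 library. Relative to the WT mean, non-members in the lowest decile of coding GC had a median shift of -0.51, -0.36 and -0.32 in ecap-2 at 0 h, -0.34, -0.30 and -0.27 at 1 h and -0.53, -0.49 and -0.42 at 3 h. In WT libraries the shift lay between -0.050 and 0.047. The summed level of the members was 491, 580 and 699 FPKM in ecap-2 at 0 h, 542, 628 and 693 FPKM at 1 h and 487, 534 and 540 FPKM at 3 h in the same order. At each time replicate 1 had both the strongest shift and the lowest sum. Most members lie in that decile themselves, the groups hold 3 libraries each, and a link between shift and sum was not tested. When the median shift of each of 50 bins of coding GC was taken from every library, an alternative chosen after seeing the data, the rule took 105 genes, of which 102 were among the 129. With bins of the GC of the spliced transcript it took 108 genes, all 108 among the 129. Both corrections remove only a median, and genes chosen for a large gap can meet the rule after it regardless.

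**Figure D5:**
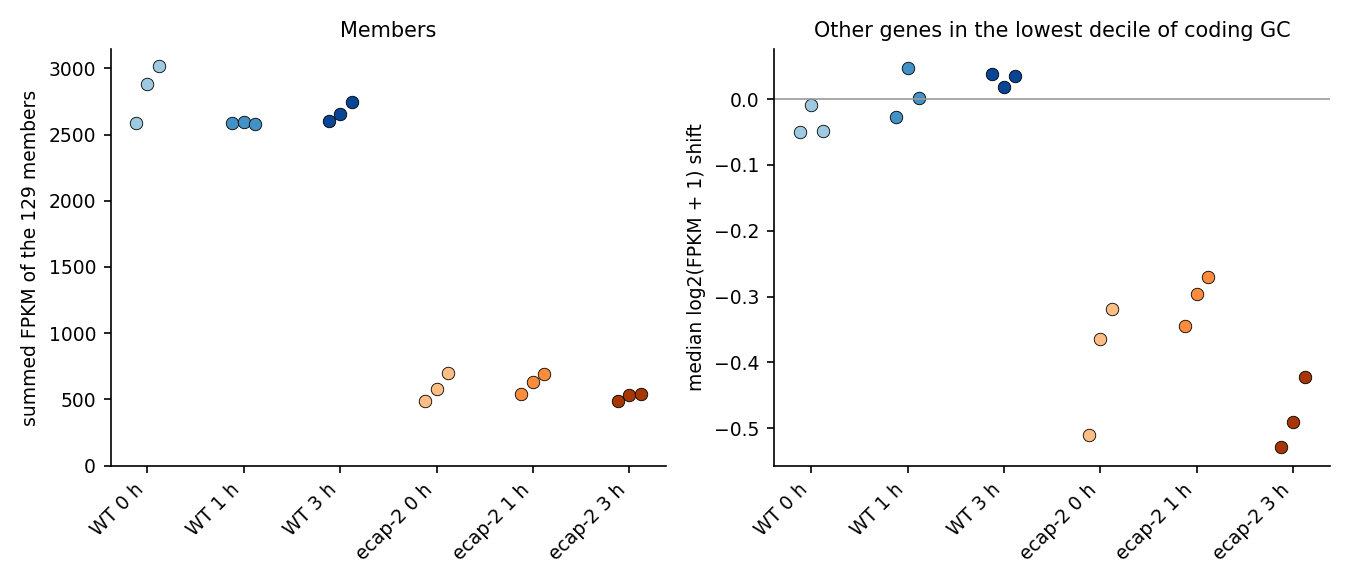
Left, summed FPKM of the 129 members in each of the 18 libraries, 2581 to 3018 in WT and 487 to 699 in ecap-2. Right, median shift from the WT mean in log2(FPKM + 1) of non-member genes in the lowest decile of coding GC, near 0 in WT and from -0.53 to -0.27 in ecap-2.

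Not all members were poor in coding GC, which had a median of 44.5% over the eligible genes. In 16 members coding GC was in the upper 5 deciles, among them ABCG6 at 48.3%, the peroxidase gene AT5G14130 at 48.6%, KCS19 at 46.7%, ESM1 at 46.1%, HEI10 at 45.8%, XTH6 at 44.6%, PELPK2 at 44.8%, CR4 at 44.6% and the O-methyltransferase gene AT4G35160 at 45.5%. AT4G35160 had 16.2, 23.5 and 20.1 FPKM in WT and 5.95, 6.18 and 6.88 FPKM in ecap-2 at 0 h. PELPK2, a proline-rich wall protein gene, had 24.1, 30.4 and 27.7 FPKM in WT and 11.4, 9.66 and 10.2 FPKM in ecap-2 at 0 h.

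The members were spread over all 5 chromosomes, with 31, 20, 23, 20 and 35 on chromosomes 1 to 5, where 3858, 2298, 2934, 2277 and 3508 eligible genes lie. The median distance from a member to the nearest other member was 335032 bases, and 4 members lay within 20000 bases of another. These were the O-methyltransferase pair above and the pair AT2G33390 and AT2G33400, which overlap on opposite strands of chromosome 2. AT2G33390 had a mean of 15.2 FPKM in WT and 2.78 FPKM in ecap-2, and reads of the overlap cannot be told apart without strand. In all, 39 members overlap another annotated gene, 35 of them on the opposite strand.

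Within 1000000 bases of AT3G58110 lay 3 members, AT3G56020, AT3G59150 and CR4, among 319 eligible genes, beside 129 members among all 14876 (0.867%). AT3G59150, an F-box gene, had means of 7.25 ± 0.612 and 1.40 ± 0.591 FPKM (SD, n = 9). The eligible genes of this window had a median difference of -0.053 on the log2 scale, against 0.0068 over all eligible genes. Of the 319, 57 lay lower and 29 higher in ecap-2 at all 3 times, beside 2675 and 2448 of all 14876. Of the genes annotated next to members, 2 on each side, 362 were eligible and no members. Of these 83 (22.9%) lay lower and 57 (15.7%) higher in ecap-2 at all 3 times, beside 18.0% and 16.5% of all eligible genes, and their median difference was -0.058. The lowest of these neighbours was BBX27, a B-box protein gene with 23.9 FPKM in WT and 4.48 FPKM in ecap-2, followed by the phytosulfokine precursor gene PSK1 with 6.47 and 1.53 FPKM. The highest was RALFL27, a gene for a RALF-like peptide, with 3.63 and 9.94 FPKM.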

How the data were processed

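Gene expression was measured by RNA sequencing, 18 libraries in 6 groups of 3, grouped by the genotype and hours in the sample labels. The authors deposited 1 table of FPKM per library, per the file headers. Alignment with TopHat2, estimation with Cufflinks and the TAIR10 build are named in the submitters' processing notes, and versions are not given in the sources used here. FPKM keep no read counts, so no interval for counting error was possible. An exact 0 can be a failed estimate. Names, coordinates and sequences came from RefSeq TAIR10.1, whose nuclear chromosomes have the same lengths as TAIR10, and 22122 IDs matched. The files hold no coordinates.

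Genes with at least 1 FPKM in at least 3 libraries were tested, 17835 in all. A model with 6 group means was fitted to log2(FPKM + 1) with limma 3.58.1 (R 4.3.3, statmod 1.5.0; trend and robust empirical Bayes, 12 residual degrees of freedom). Two-sided p-values were adjusted over all genes by the Benjamini-Hochberg method within each of 6 comparisons, at 0.05, and SE are those of the moderated fit. The script was tested on simulated data. Python 3.11.15 with matplotlib 3.10.9 was used for figures.

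The members and lists were chosen with earlier results of these data known. The genes open to naming were AT3G58110, the 30 members of highest WT mean, members within 1000000 bases of AT3G58110 or 20000 bases of another member, members called after JA or in an interaction, the 3 nearest genes on each side of the threshold, and neighbours lying apart. Role groups, display sequences and further examples were chosen after values were seen. Replicate numbers were not taken as pairs.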

Additional observations from a re-analysis of the deposited data

Results flagged for a closer look

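A difference between the genotypes in the response to JA was called for the following members by limma's interaction test, on the log2(FPKM + 1) scale and as ecap-2 minus WT. AT4G37850 differed by -0.98 at 1 h and by -1.40 at 3 h. At 3 h AGL20 (AT2G45660) differed by -0.74, ANNAT7 (AT5G10230) by -0.79, AT4G02800 by -0.75 and AT1G74770 by 0.67. Over the alternatives run, the adjusted p ranged from 1.85e-05 to 0.882 for AT4G37850 at 1 h, from 0.000506 to 0.157 for AT4G37850 at 3 h, from 0.00143 to 0.38 for AGL20, from 0.00905 to 0.0897 for ANNAT7, from 0.00484 to 0.108 for AT4G02800 and from 0.00474 to 0.11 for AT1G74770. The groups hold 3 libraries each, so no search for single outlying libraries was made.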

How the results depend on the processing

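The rule took 128 to 150 genes when each library was left out in turn, 192 with a common total FPKM, 124 with trimmed mean scaling and 167 with a WT minimum of 1 FPKM. It took 2675 with no fold, 27 with a ratio under 0.25 and 67 with a WT minimum of 10 FPKM, and the members within 1000000 bases of AT3G58110 numbered 57, 0 and 1 under these 3, 5 with a common total and 3 to 4 with a library left out. Members called, with a library left out in turn, numbered 28 to 38 in WT at 1 h, 43 to 56 in WT at 3 h, 27 to 45 in ecap-2 at 1 h, 35 to 51 in ecap-2 at 3 h, 0 to 3 for the difference of responses at 1 h and 1 to 12 for that at 3 h. The 27 came without ecap-2 1 h replicate 3 and the 12 without ecap-2 0 h replicate 1. With a mean of at least 5 FPKM, which leaves 79 members, 33 were called in WT at 3 h. The difference at 1 h was called for 0 members with a pseudocount of 0.1, 6 with 5, 0 with a mean of at least 5 FPKM and 0 with only the libraries compared. That at 3 h was called for 2, 14, 2 and 2 under the same settings, 9 with a common total and 2 with the coding GC correction. AT4G37850 at 1 h reversed to 0.55 with a pseudocount of 0.1. This gene, the only member with a called difference at 1 h in the first fit, has a mean under 5 FPKM. The filter at that mean removed it before the test, so the 0 there does not bear on its call. Of 174 member changes called, 105 held under every alternative that tested the gene, and 1 reversed. A gene that an alternative filtered out was not counted against its call. The cause of these shifts was not tested.

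Replicate numbers occur in every group, but over 45 pairs of same-numbered libraries the correlation of deviations ran from -0.16 to 0.32 and exceeded 0.1 in 19, so the criterion for taking the numbers as pairs, every pair over 0.1, was not met. With a replicate block, the difference of responses was called for 2 members at 1 h and 9 at 3 h, and the 4 other counts were 38, 58, 49 and 44. As a hint from the data, 13 of 18 libraries correlated best with their own number, and the median correlation was 0.080 for libraries with the same number and -0.030 for others.

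FPKM without read counts limit what can be said of members near 0 in ecap-2. Of the 129, 6 are listed at 0 in at least 1 library, and AT5G13295 is listed at 0 in all 3 libraries of ecap-2 at 1 h.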
